A study of Rattus norvegicus with 5 samples.

Results

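Occludin, its MARVEL-domain relatives, the junctional adhesion molecules (JAMs) and the scaffolds beneath them were followed in FRT cells, an established line of rat thyroid epithelial cells, grown as three-dimensional (3D) follicles or as flat (2D) monolayers. The genes were listed by name as Ocln, Marveld2, Marveld3, F11r, Jam2, Jam3, Tjp1, Tjp3 and Cgn, and were found by matching the RefSeq transcript of each probe to its rat symbol. A probe was matched for 8 of the 9, of 15154 genes with a matched probe in all, and those 8 genes had 9 of the 30367 probes. No probe was matched to Cgn, which encodes cingulin, so its transcript was not measured and only its promoter was examined. The 3D group was 4 replicate cultures of FRT follicles in Matrigel, a basement membrane gel, taken on day 5. The 2D group was a pool of 4 replicate cultures of confluent FRT monolayers. All cultures came from the same Fischer rat line, with no other allele or agent given in the labels. On 4 arrays a 3D replicate was labelled with Cy5 and the 2D pool with Cy3, and on the remaining array pooled 3D RNA carried Cy3 while the 2D pool carried Cy5, which is called the swapped array.

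The spread of the 2D cultures was lost in the pool, the swapped array was not an independent culture, and FRT is a single cell line, so p-values measured only the spread between these 5 arrays. All arrays lay on 1 slide and held 58717 spots, of which 0 were saturated. Per array, 47.1% to 50.9% of probes exceeded the scanner software's background test in 3D, and 45.0% to 50.1% did so in 2D. Ratios of the 4 replicate arrays correlated across genes at r = 0.871 to 0.946, and those of the swapped array, turned to 3D over 2D, with theirs at r = 0.734 to 0.765. All 9 genes of the list of epithelial markers were well above background. Of the list of thyroid follicular cell markers, 6 of 9 were above background on at least some arrays.

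Tight junctions seal the space between neighbouring epithelial cells at the border of the apical and lateral membranes. Occludin, tricellulin (Marveld2) and Marveld3 are membrane proteins that share the MARVEL domain, and tricellulin gathers where 3 cells meet. JAMs are immunoglobulin-like adhesion proteins, of which JAM-A (F11r) is the usual epithelial one. The zonula occludens proteins ZO-1 (Tjp1) and ZO-3 (Tjp3) are PDZ scaffolds that hold these membrane proteins to the actin cytoskeleton. In the thyroid such junctions close the follicle lumen, where thyroglobulin is stored.

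Promoter sequences from RefSeq, on build GRCr8, were matched for 7 of the 9 genes. They were searched on both strands in the 250 bases before the start. The motifs were the E-box letters CAGGTG, which Snail and Zeb family factors can bind, AACCNGTT, a Grainyhead motif, and the GC box GGGCGG. The E-box letters were present in 15.9% of 33469 promoters of the same length, AACCNGTT in 1.76% and GGGCGG in 30.5%. The 3 promoters that held an E-box match are shown, those of Ocln (chr2:33441199-33441448, minus strand), F11r (chr13:86405979-86406228, plus strand) and Tjp3 (chr7:9084174-9084423, plus strand). Each reads 5′ to 3′, with the E-box letters of either strand in capitals.
Ocln: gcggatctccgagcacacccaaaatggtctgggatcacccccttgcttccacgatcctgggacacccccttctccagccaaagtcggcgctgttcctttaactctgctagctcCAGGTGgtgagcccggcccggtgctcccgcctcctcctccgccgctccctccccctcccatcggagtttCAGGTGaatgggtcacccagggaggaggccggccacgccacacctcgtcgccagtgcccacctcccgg
F11r: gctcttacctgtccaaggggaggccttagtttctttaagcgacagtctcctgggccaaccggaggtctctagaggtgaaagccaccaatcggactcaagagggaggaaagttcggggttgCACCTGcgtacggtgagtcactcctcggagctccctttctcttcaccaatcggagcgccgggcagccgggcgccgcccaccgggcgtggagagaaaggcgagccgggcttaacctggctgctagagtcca
Tjp3: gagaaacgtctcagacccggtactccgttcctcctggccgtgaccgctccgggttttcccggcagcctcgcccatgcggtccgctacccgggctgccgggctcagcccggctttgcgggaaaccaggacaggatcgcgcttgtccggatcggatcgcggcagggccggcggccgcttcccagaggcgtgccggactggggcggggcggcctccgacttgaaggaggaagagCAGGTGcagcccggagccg
The matches lay 137 and 68 bases before the start in Ocln, 130 bases before it in F11r and 19 bases before it in Tjp3. The E-box letters were not in the windows of Marveld2, Jam2, Tjp1 and Cgn. AACCNGTT was in the windows of Tjp1 and Cgn, and GGGCGG in those of F11r, Jam2, Tjp3 and Cgn. No printed E-box overlapped a match to the other motifs. These matches are descriptions of the letters and were tied to no measurement of binding.

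Transcripts of the 3 MARVEL proteins and of F11r were higher in 3D follicles than in 2D monolayers, Ocln by 1.84-fold, F11r by 1.55-fold, Marveld2 by 1.32-fold and Marveld3 by 1.22-fold. The ZO scaffolds Tjp1 and Tjp3 did not pass the test, and the probes of Jam2 and Jam3 were not well above background. Of the 8 measured genes, 4 were thus higher in 3D at an adjusted p under 0.01 by limma and 0 were lower. At an unadjusted p under 0.05 these counts were also 4 and 0. Over all genes the same rule called 25.9%, of which 14.4% of genes tested were higher in 3D and 11.5% lower. Among genes well above background in both conditions on all 5 arrays it called 48.8%, with 26.7% higher and 22.2% lower, against which 4 of the 6 such genes here are to be read. The median log2 ratio of 3D over 2D was 0.19 over the 8 genes and 0.35 over those 6, beside 0.003 over all genes. In RNA from whole cultures, fewer cells of a type and less RNA per cell cannot be told apart.

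**Figure D1:**
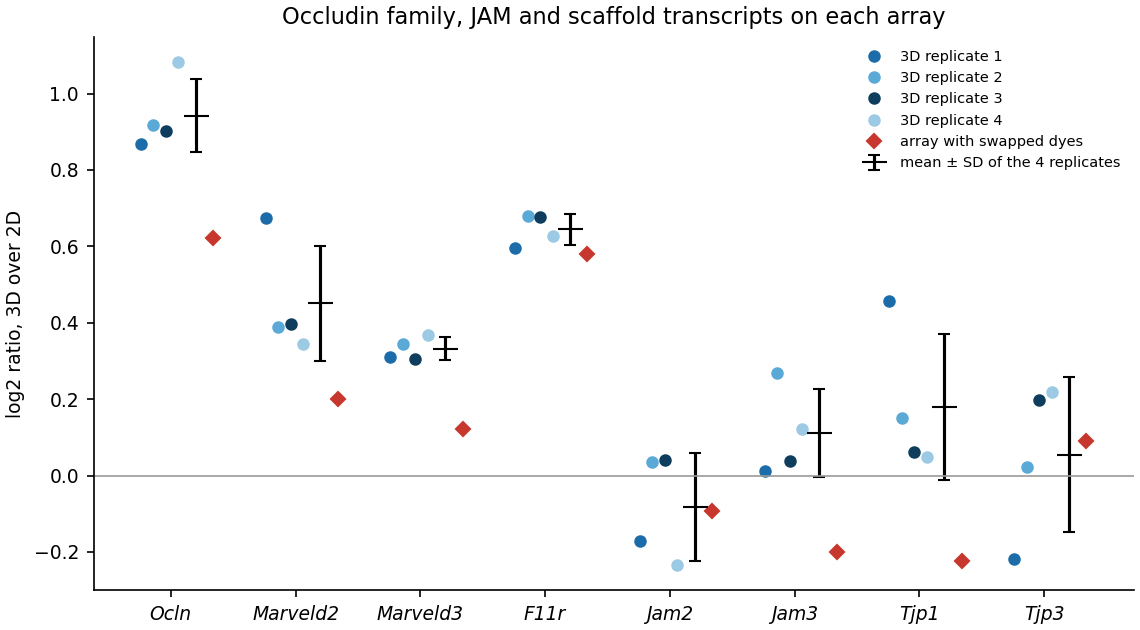
Log2 ratio of 3D over 2D (y axis) of the 8 measured genes (x axis) on each array. Blue points are the 4 replicate arrays, black bars their mean ± SD and red diamonds the swapped array. All 5 points of Ocln, Marveld2, Marveld3 and F11r lie above 0, from 0.12 to 1.08, while those of the other genes lie on both sides of 0.

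Ocln, the founding transmembrane protein of the tight junction, had log2 ratios of 3D over 2D of 0.87, 0.92, 0.90 and 1.08 on the 4 replicate arrays, and 0.62 with swapped dyes. Every array was above 0, and the swapped array was the lowest. The replicate arrays averaged 0.94 ± 0.10 (SD, n = 4). The fit over all 5 arrays gave a log2 ratio of 0.88 (SE 0.06, 95% confidence interval 0.74 to 1.02, adjusted p = 4.08e-06 by limma over all genes). Ocln was among the genes that the study itself singled out from these arrays, so its direction here is not independent evidence.

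As normalized log2 intensities, the Ocln probe read 9.95, 9.99, 10.13, 10.21 and 9.87 in the 3D channels of replicates 1 to 4 and the swapped array, and 9.08, 9.07, 9.22, 9.13 and 9.24 in the matching 2D channels. The lowest 3D value was above the highest 2D value. The raw median signals were less even, because Cy5 was the brighter dye: over all spots the median was 103 to 117.5 in Cy5 and 47 to 54 in Cy3. Ocln read 1431 to 1743 in the 3D channels and 294.5 to 360 in the 2D channels of the replicate arrays, where 3D carried Cy5. On the swapped array it read 652 in 3D, now in Cy3, and 940.5 in 2D, now in Cy5. The excess of 3D over 2D on that array was therefore present only after correction for the dyes.

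With each array only centred on its median, Ocln had ratios of 1.65 to 1.97 on the replicate arrays, and -0.08 with swapped dyes, and its fitted ratio of 1.40 did not pass (adjusted p = 0.0848 by limma). With the same centring and a term for the dye in the fit, an alternative chosen after seeing the data, the ratio was 0.85 (adjusted p = 3.08e-06 by limma). A dye term added to the loess-normalized fit gave 0.78 (adjusted p = 3.88e-06), and the dye effect itself was 0.16 on the log2 scale (adjusted p = 0.0797).

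**Figure D2:**
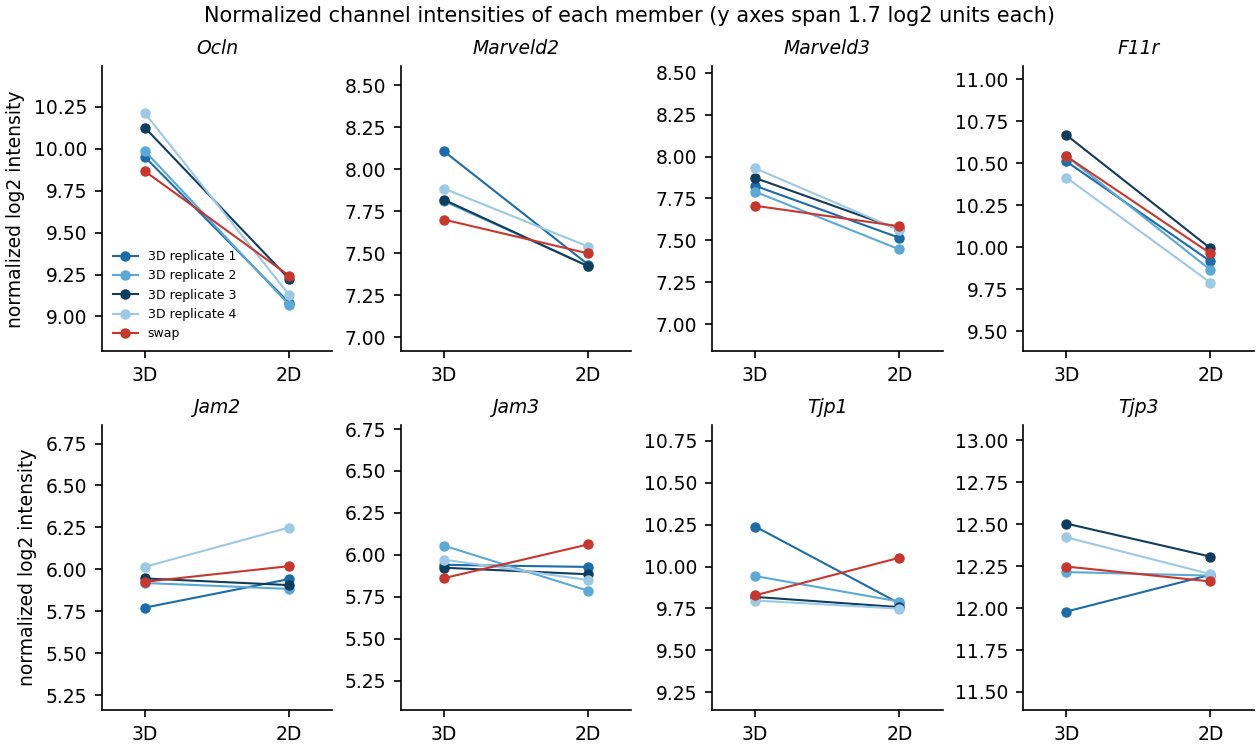
Normalized log2 intensity (y axis) of each gene in the 3D and 2D channel (x axis), with a line joining the channels of 1 array. Blue lines are the replicate arrays and red lines the swapped array. For Ocln all 3D points, from 9.87 up, lie above all 2D points, which end at 9.24, whereas the lines of Tjp1 and Tjp3 cross.

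F11r encodes JAM-A, which binds ZO-1 and the polarity protein PAR3. Its log2 ratios were 0.60, 0.68, 0.68 and 0.63 on the replicate arrays, and 0.58 with swapped dyes, the narrowest range of all arrays among the genes called. They averaged 0.64 ± 0.04 (SD, n = 4), and the fit gave 0.63 (SE 0.04, 95% confidence interval 0.54 to 0.72, adjusted p = 1.98e-06 by limma). Normalized intensities were 10.51, 10.54, 10.67, 10.41 and 10.54 in 3D and 9.92, 9.86, 9.99, 9.79 and 9.96 in 2D, with no overlap. The dye effect left after loess was 0.03, and the ratio with a dye term was 0.61 (adjusted p = 5.36e-06 by limma). Before correction for the dyes, F11r read 1037.5 in 3D and 1597.5 in 2D on the swapped array. Without loess or a dye term the fitted ratio was 1.16 (adjusted p = 0.0994), and with the same centring and a dye term it was 0.65 (adjusted p = 6.22e-06). The RefSeq table also lists an F11r pseudogene, and any signal from it was not separated.

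Ocln and F11r were the 2 largest ratios of the group. The ratio of Ocln exceeded that of F11r by 0.23 to 0.46 on the replicate arrays, a mean of 0.30 ± 0.11 (SD, n = 4), and by 0.04 on the swapped array. It was the higher ratio on 4 of 4 replicate arrays, where the smallest two-sided p an exact sign test could give is 0.125. The ratio of Ocln exceeded those of Marveld2, Marveld3, Tjp1 and Tjp3 on all 4 replicate arrays too, by 0.19 at the least, over Marveld2 on replicate 1. The probes of Marveld2 and Marveld3 were dimmer than that of Ocln, and the size of their ratios depended more on the processing. With no offset added to the background-corrected signals the fitted ratios were 0.94 for Ocln, 0.53 for Marveld2 and 0.38 for Marveld3.

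Marveld2, or tricellulin, seals the corners where cells meet. Its log2 ratios were 0.67, 0.39, 0.40 and 0.35 on the replicate arrays, and 0.20 with swapped dyes. All 5 were above 0, and replicate 1 stood above the rest. The replicates averaged 0.45 ± 0.15 (SD, n = 4), and the fit gave 0.40 (SE 0.06, 95% confidence interval 0.26 to 0.54, adjusted p = 0.000744 by limma). The 3D intensities of 8.11, 7.81, 7.82, 7.89 and 7.70 did not overlap the 2D intensities of 7.43, 7.42, 7.42, 7.54 and 7.50. Without replicate 1 the ratio was 0.33, and it still passed. Without loess or a dye term it was 0.72 (adjusted p = 0.134), and with median centring and a dye term it was 0.38 (adjusted p = 0.0017 by limma).

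In RefSeq gene order Marveld2 is the protein-coding gene next to Ocln. The 4 genes that follow it, Rad17, Ak6, Taf9 and Ccdc125, had log2 ratios of -0.18, -0.64, -0.17 and 0.20, of which only Ak6 passed (adjusted p = 8.75e-06 by limma). On the other side of Ocln, Gtf2h2 had a ratio of 0.03 (adjusted p = 0.656 by limma) and Smn1, farther off, one of -0.13 (adjusted p = 0.0892). These neighbours were chosen by position.

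Marveld3, the remaining MARVEL protein of the junction, had ratios of 0.31, 0.34, 0.31 and 0.37 on the replicate arrays, and 0.12 with swapped dyes, from 1 spot per array. The replicates lay close together, at 0.33 ± 0.03 (SD, n = 4), and the swapped array was lower. The fit gave 0.29 (SE 0.05, 95% confidence interval 0.18 to 0.40, adjusted p = 0.00088 by limma). Intensities were 7.83, 7.79, 7.87, 7.93 and 7.71 in 3D and 7.52, 7.45, 7.57, 7.56 and 7.58 in 2D. The call was lost with no offset added to the background-corrected signals, where the ratio was 0.38 (adjusted p = 0.0105), and with median centring alone, where it was 0.61 (adjusted p = 0.162). With median centring and a dye term it was 0.28 (adjusted p = 0.00162 by limma).

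Jam2 and Jam3 encode JAM-B and JAM-C, which are best known from endothelium and other cell types outside epithelia. The Jam2 probe was well above background on 0 of 10 spots in 3D and 1 of 10 spots in 2D, on the array of replicate 4. The Jam3 probe was so on 0 of 10 spots in either condition. Their normalized intensities were 5.77 to 6.02 in 3D and 5.88 to 6.25 in 2D for Jam2, and 5.86 to 6.05 in 3D and 5.79 to 6.06 in 2D for Jam3. No fold is given for either, since neither condition had a measured signal to compare. On a separate list of endothelial markers, Pecam1, Kdr, Tek, Tie1 and Cldn5 were above background on 0 spots. Cdh5 was so on 6 of 10 spots in 3D and 3 of 10 spots in 2D. Esam, of the same list, was above background on 10 of 10 spots in each condition.

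Tjp1 encodes ZO-1, the first known scaffold of the tight junction. Its brighter probe, printed in 10 spots per array, had ratios of 0.46, 0.15, 0.06 and 0.05 on the replicate arrays, and -0.22 with swapped dyes. Replicate 1 was the highest, and the swapped array pointed the other way. The replicates averaged 0.18 ± 0.19 (SD, n = 4), and the fit gave 0.10 (95% confidence interval -0.08 to 0.28, adjusted p = 0.423 by limma). With a dye term in the fit the value was -0.02 (adjusted p = 0.879 by limma). The intensities of 10.24, 9.94, 9.82, 9.80 and 9.83 in 3D overlapped those of 9.78, 9.79, 9.76, 9.75 and 10.05 in 2D. The second Tjp1 probe, with 2 spots per array, had ratios of 0.08, -0.15, 0.06 and -0.02 on the replicate arrays, and -0.10 with swapped dyes. Its fitted ratio was -0.03 (95% confidence interval -0.14 to 0.08, adjusted p = 0.763 by limma over all probes). Both intervals lie below the lower bound of the Ocln interval.

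Tjp3 encodes ZO-3, a scaffold largely restricted to epithelia, and was measured by 1 spot per array. Its ratios were -0.22, 0.02, 0.20 and 0.22 on the replicate arrays, and 0.09 with swapped dyes. Replicate 1 was below 0 and the other arrays above it, and the replicates averaged 0.05 ± 0.20 (SD, n = 4). The fit gave 0.06 (95% confidence interval -0.08 to 0.21, adjusted p = 0.537 by limma). The intensities of 11.98, 12.22, 12.50, 12.42 and 12.25 in 3D overlapped those of 12.20, 12.19, 12.31, 12.20 and 12.16 in 2D. The intervals of Tjp1 and Tjp3 bound any change and do not show that these transcripts were equal in the cultures.

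The proteins that work with these genes were described from a list of 53 tight junction partners, of which 42 were measured and 36 were well above background in both conditions on all arrays. Of the 42, 12 were higher in 3D, 6 were lower and 24 did not pass, with a median log2 ratio of 0.03. The calls were 28.6% in the higher and 14.3% in the lower direction, against the 14.4% and 11.5% over all genes tested. All 18 called partners were among the 36 well above background, which makes 33.3% higher and 16.7% lower of those 36, beside 26.7% and 22.2% of all genes that met the same condition. At an unadjusted p under 0.05, 16 were higher and 10 lower. These counts moved by over 1.5 times under 4 alternatives: 5 higher and 3 lower with no offset, 6 higher and 3 lower from the scanner software's processed signals, 3 lower with median centring and a dye term, and 0 of each with median centring alone.

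**Figure D3:**
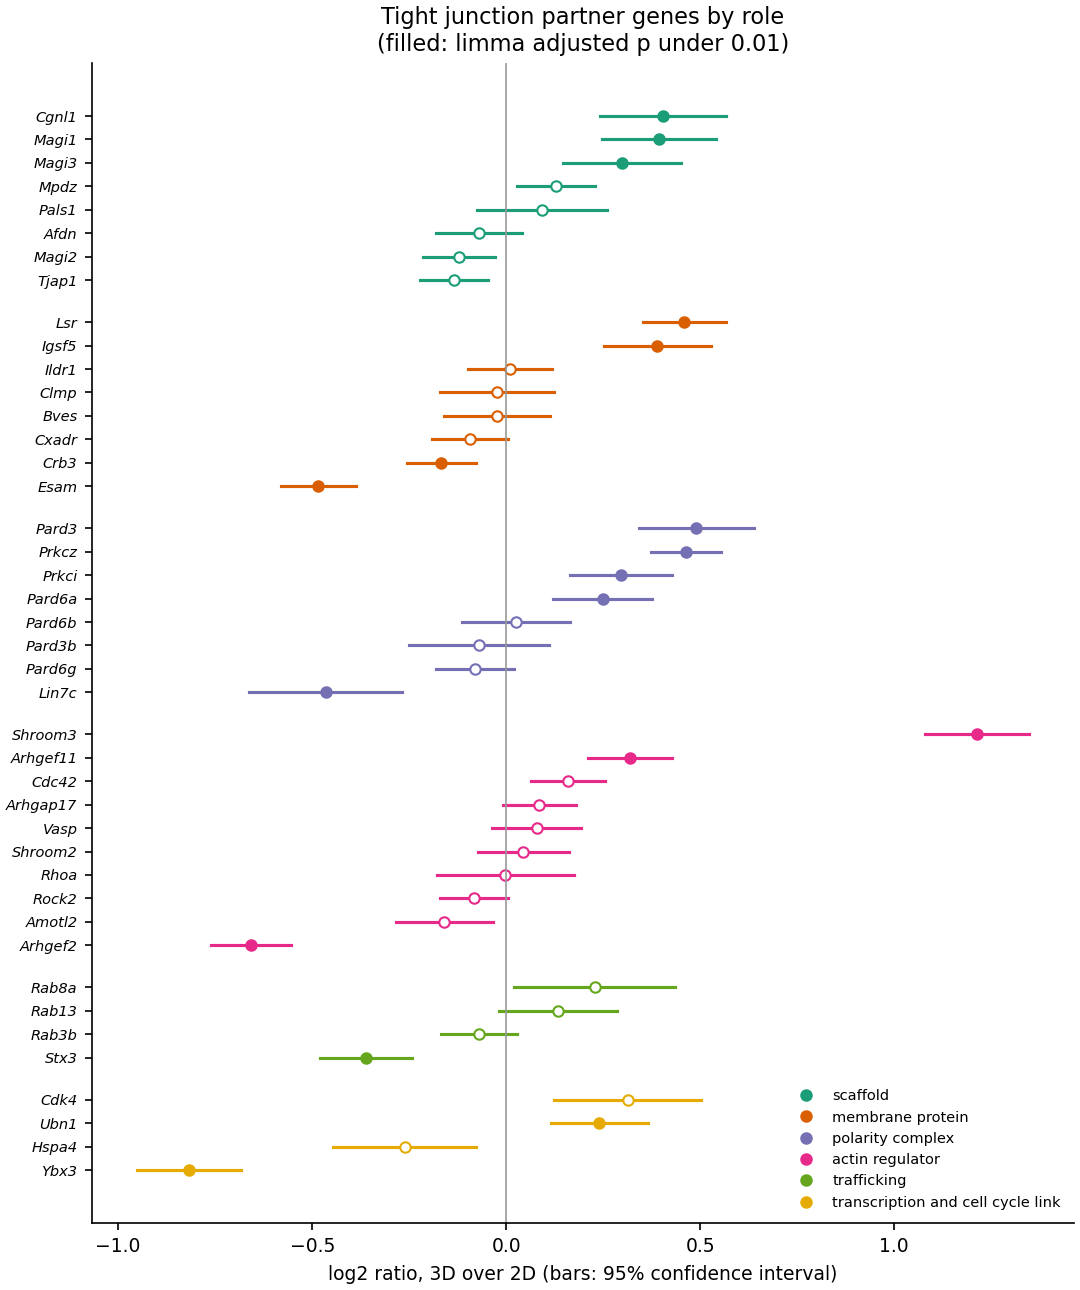
Fitted log2 ratio of 3D over 2D (x axis) of the 42 measured tight junction partners (rows), grouped by role, with 95% confidence intervals from limma. Filled points have an adjusted p under 0.01. Shroom3 lies farthest to the right at 1.21 and Ybx3 farthest to the left at -0.82.

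Among the scaffolds 3 of 8 were higher and 0 lower. Of these 8, 7 were well above background in both conditions on all arrays. Counts by role, here and below, rest on few genes. They are to be read beside the 26.7% higher and 22.2% lower of all genes that met this condition. Magi3, 1 of the 3 higher scaffolds, read -0.03 on the swapped array. It did not pass with a dye term in the fit (adjusted p = 0.0136 by limma). Cgnl1, or paracingulin, a relative of cingulin, had 0.77, 0.38, 0.31 and 0.33 on the replicate arrays, and 0.24 with swapped dyes. Its fitted ratio was 0.40 (adjusted p = 0.0016 by limma). Replicate 1 stood above the others for Cgnl1 as it did for Marveld2 and Tjp1. Cgnl1 was chosen after its values were seen, as the nearest relative of Cgn on the list.

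Of the membrane proteins 2 of 8 were higher and 2 lower, with 5 of the 8 well above background. Lsr, or angulin-1, which recruits tricellulin to corners between cells, had ratios of 0.41, 0.48, 0.49 and 0.59 on the replicate arrays, and 0.32 with swapped dyes. The fit gave 0.46 (adjusted p = 5.26e-05 by limma), and a second Lsr probe gave 0.24 (adjusted p = 0.00182). Esam, an adhesion protein related to the JAMs and best known from endothelium, was lower, with -0.49, -0.55, -0.51 and -0.51 on the replicate arrays, and -0.36 with swapped dyes. Its fitted ratio was -0.48 (adjusted p = 1.75e-05 by limma). It was the one endothelial marker above background in both conditions on all arrays.

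Of the polarity proteins 4 of 8 were higher and 1 lower, with 7 of the 8 well above background. Prkci, 1 of the 4, was called from its brightest probe, at 0.30 (adjusted p = 0.00287 by limma). A second Prkci probe, above background on 10 of 10 spots in each condition, gave 0.03 (adjusted p = 0.762 by limma over all probes). Pard3, which encodes PAR3, had ratios of 0.40, 0.55, 0.68 and 0.61 on the replicate arrays, and 0.22 with swapped dyes, with a fitted ratio of 0.49 (adjusted p = 0.00029 by limma). Prkcz, an atypical protein kinase C that binds the PAR complex, had 0.46, 0.47, 0.39 and 0.54 on the replicate arrays, and 0.46 with swapped dyes. Its fitted ratio was also 0.46 (adjusted p = 1.46e-05 by limma). Lin7c, a PDZ partner of the Crumbs complex, was lower, with -0.46, -0.39, -0.73 and -0.69 on the replicate arrays. The swapped array read -0.06, and the fit gave -0.46 (adjusted p = 0.00233 by limma).

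Of the actin regulators 2 of 10 were higher and 1 lower, with all 10 well above background. Shroom3, which drives apical constriction, had the largest ratio of the list, with 1.22, 1.43, 1.20 and 1.22 on the replicate arrays, and 0.99 with swapped dyes. Its fitted ratio of 1.21 was 2.32-fold (adjusted p = 4.93e-07 by limma). Arhgef2, or GEF-H1, a guanine nucleotide exchange factor that cingulin holds at the junction, had -0.76, -0.71, -0.64 and -0.66 on the replicate arrays, and -0.51 with swapped dyes. The fit gave -0.66 (adjusted p = 4.08e-06 by limma).

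Ybx3 is the Y-box factor known as ZONAB, which ZO-1 binds at the junction. Its ratios were -0.57, -0.75, -0.91 and -0.89 on the replicate arrays, and -0.96 with swapped dyes, and the fit gave -0.82 (adjusted p = 5.53e-06 by limma). Every array was below 0. Of the other 3 genes linking junctions to transcription and the cell cycle 1 was higher and 0 lower, and of the 4 trafficking genes 0 were higher and 1 lower. The claudins, the strand-forming proteins of the junction, were 1 higher and 3 lower of 23 measured. Of those 23, only 8 were well above background in both conditions on all arrays, and they held all 4 calls, or 12.5% higher and 37.5% lower beside the 26.7% and 22.2% of all such genes. Cldn19 was counted as not passed from its brightest probe, at -0.17 (adjusted p = 0.0338 by limma). A second Cldn19 probe gave -0.23 (adjusted p = 0.00871 by limma over all probes).

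Over the 16 alternatives in processing, Ocln, F11r and Marveld2 passed in 15 and Marveld3 in 14, each with a positive fitted ratio throughout. Tjp1 and Tjp3 passed in 0 of 16.

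**Figure D4:**
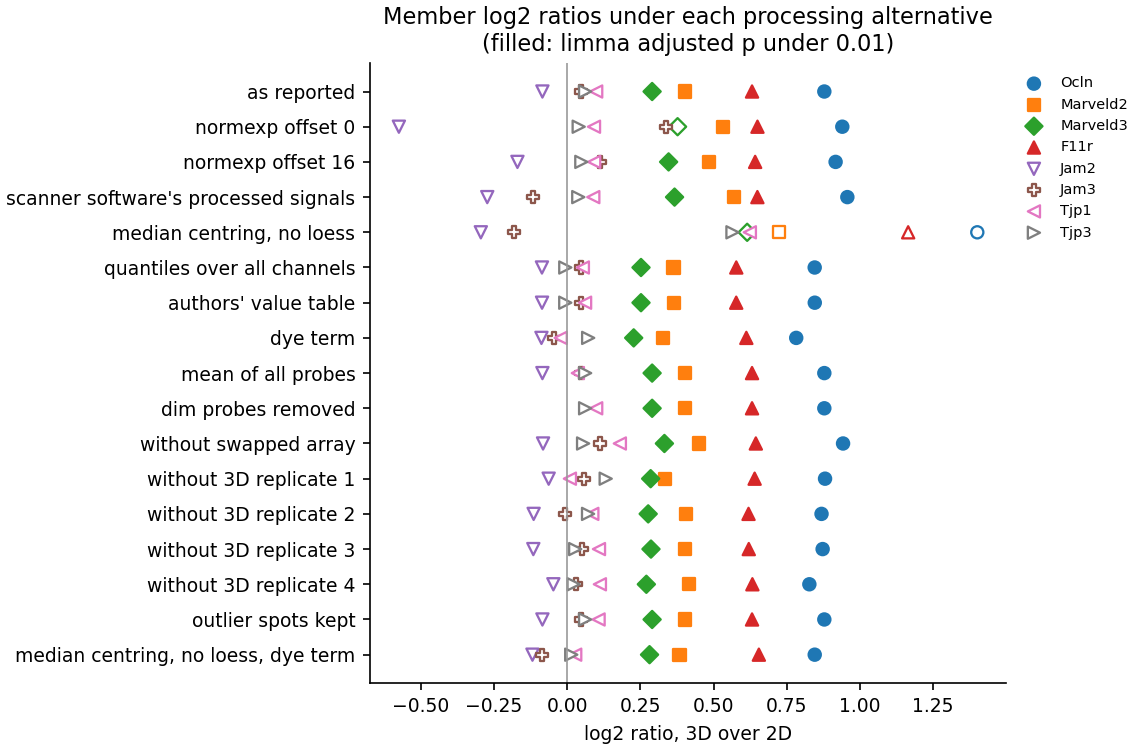
Fitted log2 ratio of 3D over 2D (x axis) of the 8 genes under the reported processing and each alternative (rows). Filled points have an adjusted p under 0.01 by limma. Ocln lies between 0.78 and 0.96 in all but median centring without a dye term, where it lies at 1.40 and no gene is filled.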

How the data were processed

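RNA taken from FRT cells on culture day 5 was hybridized to 5 Agilent 2-colour rat arrays. The authors' deposited scanner files hold median spot and background intensities read by Agilent Feature Extraction 10.7.3.1, per the file headers, with software flags and processed intensities. Log10 ratios of Cy5 over Cy3, also deposited, were not used here. The authors' deposited value table holds log2 ratios of 3D over 2D, normalized with limma per the submitters' notes, and correlated with the ratios computed here at r = 0.995 to 0.998. Its column medians were -0.00639 to 0.00106.

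From the median signals, limma 3.58.1 under R 4.3.3 subtracted background by its normexp method (offset 50, which compresses ratios of dim probes), then applied loess within arrays, giving control spots a weight of 0, and scaled mean intensities between arrays by quantiles. The sign of the swapped array was turned. Flagged spots, 1.12% to 1.60% per array, were left out, and spots of a probe were averaged. Of the probes, 17998 (59.3%) matched 1 RefSeq symbol, and the brightest probe stood for a gene, with 2605 genes having several. One ratio was fitted over 5 arrays with 5.12 prior degrees of freedom and Benjamini-Hochberg adjustment over all 15154 genes. The threshold was 0.01. Probes were also fitted separately. The number of arrays limits the precision. The fit was tested on simulated data.

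The genes, lists, rules and alternatives were chosen with earlier results of these data known. By the rule for named genes, each listed gene was described with every probe, and of the partner list the 4 largest called ratios in each direction. Prkci, Magi3 and Cldn19 were named outside this rule, after their values were seen. For Ocln the 5 genes most alike over the arrays were named. One further junction gene is not reported here. Alternatives covered offset, normalization, dye term, probe choice, dim and flagged spots, and each array left out.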

Additional observations from a re-analysis of the deposited data

Results flagged for a closer look

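The log2 ratio of Marveld2 on replicate 1, at 0.67, stood apart from those of the other 3 replicate arrays, at 0.35 to 0.40. Its gap was 0.845 of the whole range of the 4 arrays, above the 95% critical value of Dixon's test. Such a value turns up by chance in about 1 of 20 groups. Replicate 1 stood apart in this way in 245 of 7589 genes well above background (3.23%), against 88, 51 and 45 genes for replicates 2, 3 and 4. Its part in the ratio of Marveld2 was not tested beyond the fit without it, which gave 0.33.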

How the results depend on the processing

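Of the 16 alternatives, median centring without loess or a dye term ended the calls of all 4 genes, with log2 ratios of 1.40 for Ocln, 1.16 for F11r, 0.72 for Marveld2 and 0.61 for Marveld3, so that of the 8 genes 0, and of the partners 0 higher and 0 lower, were left. It called 7 genes in all, against 3918 as reported. With a dye term added the 4 genes and 3505 genes in all were called, with 10 partners higher and 3 lower. With no offset Marveld3 read 0.38 and did not pass, 5 partners were higher and 3 lower, and 2222 genes were called. The scanner software's processed signals left 6 partners higher and 3 lower. The cause of these losses was not tested.

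Leaving out each array in turn, 4 of the 8 genes were higher each time, 8 to 12 partners were higher and 4 to 6 lower. The ratio was 0.83 to 0.94 for Ocln, 0.62 to 0.64 for F11r, 0.33 to 0.45 for Marveld2, 0.27 to 0.33 for Marveld3, 0.01 to 0.18 for Tjp1 and 0.02 to 0.13 for Tjp3. For the 4 called genes of the 8, no alternative turned the sign of the fitted ratio. With median centring alone, however, the swapped array by itself read below 0 for all 4. Its ratios there were -0.08 for Ocln, -0.20 for F11r, -0.18 for Marveld2 and -0.27 for Marveld3. The partners were followed under the alternatives only as counts, apart from Magi3 with a dye term. Jam2 and Jam3 gave no value once dim probes were removed. No paired analysis was possible because the 2D cultures were pooled, so each 3D replicate had the same 2D RNA.

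Signal over background limited Jam2 and Jam3, and 1 spot per array limited Marveld3 and Tjp3.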

Other observations

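The genes whose ratios of 3D over 2D were most like those of Ocln over the 5 arrays, of 7588 genes well above background in both conditions on all arrays, were Zdhhc1, Pitpnm1, Map3k1, Zmynd8 and Aldh3a2. The measure was the root mean square of the difference in log2 ratio, which was 0.0689, 0.0697, 0.0851, 0.0852 and 0.0858 in that order. Zdhhc1 encodes a palmitoyltransferase, Map3k1 a kinase upstream of JNK, and Aldh3a2 a fatty aldehyde dehydrogenase. Their fitted log2 ratios were 0.90, 0.90, 0.92, 0.90 and 0.89, beside 0.88 for Ocln. Zdhhc1 had 0.97, 0.97, 0.97 and 1.05 on the replicate arrays, and 0.54 with swapped dyes. The swapped array entered the measure, so values like those of Ocln on it follow from how these genes were chosen. These points share 5 arrays and the same 2D pool.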
